A study of Homo sapiens with 4 samples.

Results

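Transcripts of 9 genes of epithelial cell surfaces and epithelial identity were examined in H1792, a lung cancer cell line of human origin, after treatment with ACBI1 or with the solvent DMSO. The 9 genes were chosen by symbol: the proteases ST14 and PRSS8, their inhibitors SPINT1 and SPINT2, the surface protein EPCAM, the lipid enzyme CDS1, the trafficking GTPase RAB25, and the transcription factors GRHL1 and OVOL2. All 9 have a row among the 61228 features of the count files. Of the 19159 features with enough reads for a test, 6 belong to these 9 genes. ACBI1 is a PROTAC, which means a compound that brings a target protein to the VHL ubiquitin ligase for degradation, and its targets are SMARCA2, SMARCA4 and PBRM1 of the SWI/SNF chromatin remodelling complexes. Each group held 2 libraries of total RNA from cells kept in dishes for 96 h, with a dose of ACBI1 that the labels write as 1 mM and that could not be checked from counts. Genotype is labelled as WT in both groups, and a single cell line was used. Nothing in the labels says whether the replicates were separate cultures, so p-values measure the spread between these libraries, which may be technical. The title of the series concerns SMARCA4, immunity against tumours and STING; the comparison here asks which transcripts differ with the degrader.

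Matriptase, the product of ST14, is a serine protease that spans the membrane of epithelial cells. Together with prostasin, a lipid-anchored protease encoded by PRSS8, it forms a cascade at the cell surface that cleaves receptors, growth factor precursors and channels. Matriptase is held in check by the Kunitz-type inhibitors HAI-1 and HAI-2, encoded by SPINT1 and SPINT2. EPCAM is a cell adhesion protein of simple epithelia that is widely used as a carcinoma marker. The grainyhead-like factor GRHL1 and the zinc-finger factor OVOL2 regulate genes of epithelial barriers and junctions, and OVOL2 and the repressor ZEB1 are known to act against each other. RAB25 is an epithelial member of the RAB11 subfamily, which directs recycling endosomes, and CDS1 makes CDP-diacylglycerol, a precursor of phosphatidylinositol.

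Counts assigned to genes summed to between 64281850 and 86010100 per library. Levels are given as CPM, counts scaled to the size of the library after TMM correction (cpm in edgeR), and 3 counts correspond to 0.0335 to 0.0458 CPM. Among transcripts of the degrader's targets, none passed the edgeR test (SMARCA4 log2 change 0.70, adjusted p 0.0583; SMARCA2 -0.40, 0.163; PBRM1 0.10, 0.734). SMARCA4 was called higher with DESeq2 (adjusted p 0.0149), limma-voom (0.0491), scaling by library size only (0.0344) or upper quartile (0.0441), no filter (0.00834), the filter at 5 CPM (0.0485), the replicate block (0.00248) and without DMSO replicate 1 (0.0186), and SMARCA2 was called lower with the block (0.0394). ACBI1 acts on proteins, so these transcripts do not check the labels. The keratin genes KRT7, KRT8 and KRT18, which mark simple epithelia, were well expressed, with 58.7 to 680 CPM over the 4 libraries. KRT19, another keratin gene among the markers, stood at only 3.44 and 5.00 CPM with DMSO and 0.961 and 0.503 CPM with ACBI1. Other defining markers of lung adenocarcinoma and epithelium were low or absent: NKX2-1 had 0 counts in every library, and CDH1, which encodes E-cadherin, had 20 counts in the DMSO libraries and 13 in the ACBI1 libraries. Among the 8 epithelial and lung markers, 5 were tested and 4 were called lower, where 10.6% of all tested genes were: KRT7 (log2 change -2.50), KRT8 (-1.42), KRT18 (-1.14) and KRT19 (-2.51). Markers of other cell types moved with treatment too. The summed level of 3 endothelial markers was 12.6 and 48.5 CPM with DMSO and 0.0112 and 0.0458 CPM with ACBI1. PECAM1 alone supplied 12.2 and 48.1 CPM of the DMSO sums, while VWF had 24 and 23 counts and CDH5 had 2 and 4 counts with DMSO, and both were at 0 with ACBI1. For 5 fibroblast markers the sums were 349 and 762 CPM against 72.4 and 226 CPM, and for 3 neuroendocrine markers 0.111 and 0.181 CPM against 4.93 and 4.96 CPM. COL1A1, which was not called, made up most of the fibroblast sums, and DCN and LUM were called lower. DCN was under 0.126 CPM, the level at which the filter keeps a gene, in both ACBI1 libraries and was tested only through DMSO. The neuroendocrine sum was almost entirely SYP, since INSM1 was at 0 in every library and CHGA had 3 counts with DMSO and 1 with ACBI1. Of the 5 leukocyte markers, CD3E was at 0 in every library, and the sum stayed between 0.356 and 1.00 CPM. Their part in the results was not tested, and in bulk RNA fewer cells with a transcript and less of it per cell cannot be told apart.

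RefSeq promoter windows of the GRCh38.p14 build were at hand for 4 of the 9 genes (RAB25, GRHL1, CDS1 and SPINT1). The windows of RAB25, GRHL1 and SPINT1 are shown because these genes cover the range seen in the counts: RAB25 was close to the detection limit in every library, while GRHL1 and SPINT1 were measurable and had log2 differences of opposite sign. The sequences run 5′ to 3′ on the plus strand and end just before the annotated start of the gene, and that of SPINT1 is cut to 220 of its 250 bases so that it holds no transcribed base. They lie at chr1:156060910-156061159, chr2:9951443-9951692 and chr15:40843798-40844017. Capitals mark matches, on either strand, to CACCTG (the E-box bound by ZEB factors) or GGGCGG (the GC box).
RAB25: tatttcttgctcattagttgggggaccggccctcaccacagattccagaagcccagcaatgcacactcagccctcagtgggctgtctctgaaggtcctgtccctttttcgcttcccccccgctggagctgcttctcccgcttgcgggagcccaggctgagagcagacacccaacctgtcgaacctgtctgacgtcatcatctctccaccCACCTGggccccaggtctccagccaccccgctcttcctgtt
GRHL1: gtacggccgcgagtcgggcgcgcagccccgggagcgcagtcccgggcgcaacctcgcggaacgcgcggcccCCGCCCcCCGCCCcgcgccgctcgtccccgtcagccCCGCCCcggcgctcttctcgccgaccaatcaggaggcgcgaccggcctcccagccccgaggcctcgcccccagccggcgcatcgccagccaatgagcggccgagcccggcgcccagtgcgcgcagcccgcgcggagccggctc
SPINT1: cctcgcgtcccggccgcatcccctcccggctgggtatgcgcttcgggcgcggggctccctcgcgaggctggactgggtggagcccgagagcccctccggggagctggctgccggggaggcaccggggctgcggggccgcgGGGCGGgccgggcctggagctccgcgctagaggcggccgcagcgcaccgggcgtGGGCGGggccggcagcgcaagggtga

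Over the 250 bases before the RefSeq start, RAB25 had 8 CpG dinucleotides and a GC content of 60.4%. A RefSeq start can lie inside the gene as annotated in GENCODE 29. The last 148 of the 250 bases for CDS1, and the last 30 at the upstream start of SPINT1, are therefore within the gene. GRHL1 had 45 CpG and 81.6% GC, SPINT1 had 35 CpG and 80.4% GC at the upstream of its listed starts, and CDS1 had 29 CpG and 76.0% GC. The median over 35116 RefSeq windows of this length was 11 CpG and 58.0% GC, so RAB25 lay below the median in CpG and the other genes lay above it. GC boxes were found 3 times in GRHL1, 3 times in SPINT1, 4 times in CDS1 and not in RAB25, and 42.6% of all windows held at least 1. The last GC box of SPINT1 lies in the 30 bases within the gene that are not printed. The E-box CACCTG occurred once in RAB25, once in CDS1 and once before the downstream start of SPINT1, against 17.5% of all windows. In CDS1 and at the downstream start of SPINT1 the E-box lies inside the gene as annotated in GENCODE 29. Neither the grainyhead motif AACCNGTT (1.49% of all windows) nor the AP-1 motif TGANTCA (6.57%) matched in any of these windows, and the searched motifs did not overlap in the stretches printed. These matches describe the letters in a short window and say nothing of binding.

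No gene of the 9 exceeded 15.6 CPM in any library, and 3 of them were at or near the detection limit in both groups. OVOL2 had 0 counts in each of the 4 libraries, which allows up to 0.0335 to 0.0458 CPM, counting error only. PRSS8 had 4 and 5 counts with DMSO and 4 and 2 with ACBI1. RAB25 had 5 and 4 counts with DMSO and 5 and 2 with ACBI1. These 3 genes failed the filter on low counts and were not tested. Exact counting ratios of DMSO to ACBI1 were 1.52 for PRSS8 (95% interval 0.482 to 5.18, counting error only) and 1.30 for RAB25 (0.431 to 4.11), so a difference in either direction was not detectable at this depth. The other 6 genes had at least 0.126 CPM, the level at which the filter keeps a gene, in every library, so that none passed through 1 group only.

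Levels of different genes were compared per kilobase of annotated exon (GENCODE 29), where the median of tested genes was 2.63 to 2.84 CPM per kb over the 4 libraries. EPCAM was the most abundant of the 9 with ACBI1, at 4.05 ± 3.01 CPM per kb (SD, n = 2), and it stood at 1.62 ± 0.730 with DMSO. With DMSO the level of ST14, 1.69 ± 1.10 CPM per kb (SD, n = 2), overlapped that of EPCAM. CDS1 was at 0.676 ± 0.318 and 0.678 ± 0.144 CPM per kb (SD, n = 2) with DMSO and ACBI1. SPINT1 was at 0.518 ± 0.178, SPINT2 at 0.285 ± 0.0779 and GRHL1 at 0.221 ± 0.0159 CPM per kb with DMSO (SD, n = 2). The 4 libraries put EPCAM between the 35.7th and the 66.4th percentile of tested genes per exon length, GRHL1 between the 16.5th and the 26.9th, and PRSS8 and RAB25 at or below the 4.30th. ZEB1, a repressor of epithelial genes, lay at the 77.8th to 80.8th percentile, and CDH1 at or below the 2.96th.

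**Figure D1:**
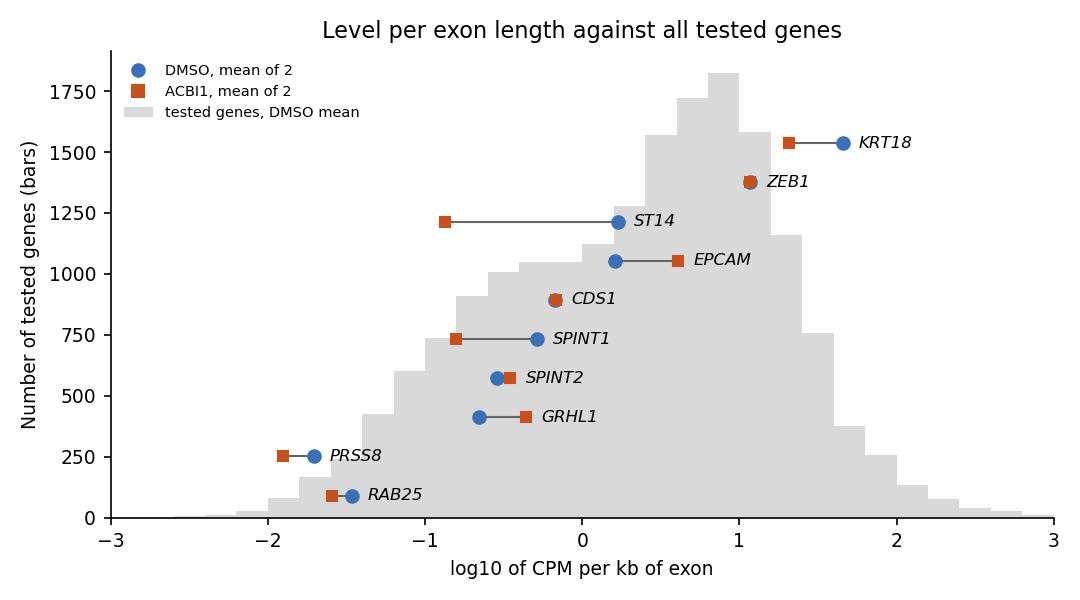
Level per exon length of 8 of the 9 genes and of ZEB1 and KRT18 against all tested genes: the horizontal axis is the log10 of CPM per kb, circles (DMSO) and squares (ACBI1) are means of 2 libraries, each pair of symbols is placed at an arbitrary height, and grey bars count tested genes by their DMSO mean. OVOL2, at 0 counts, is not drawn; PRSS8 and RAB25 lie in the left tail, and ST14 shows the longest shift, from 1.69 to 0.134 CPM per kb.

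Of the 6 tested genes, 1 was called with ACBI1, ST14, and it was lower. A gene was called when its edgeR adjusted p over all genes was under 0.05. Of all tested genes 17.4% were called (10.6% lower, 6.75% higher), so 1 of 6 is near the background. In 3 of the 6 (ST14, SPINT1 and GRHL1) the ranges of the ACBI1 and DMSO libraries did not overlap, as in 63.2% of all tested genes. The same 3 had an unadjusted p under 0.05, against 33.9% of all tested genes. The log2 changes went both ways, 4 positive and 2 negative, with a median of 0.15 beside 0.0080 for all tested genes.

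Other settings moved this count. DESeq2 called 3 of the 6 (2 lower, 1 higher) against 23.5% of all genes, limma-voom called 1 of the 6 against 17.3%, and the fit with replicate number as a block called 4 of the 6 (2 lower, 2 higher) against 41.3%. Without a filter 3 of 8 were called against 16.8%, and at an adjusted p under 0.01 none of the 6 was called against 4.09%. With a mean of at least 5 CPM only EPCAM was left and was not called, against 22.9%. SPINT1, EPCAM and GRHL1 are the genes whose call depended on the setting, and ST14 kept its call wherever it was tested at 0.05.

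**Figure D2:**
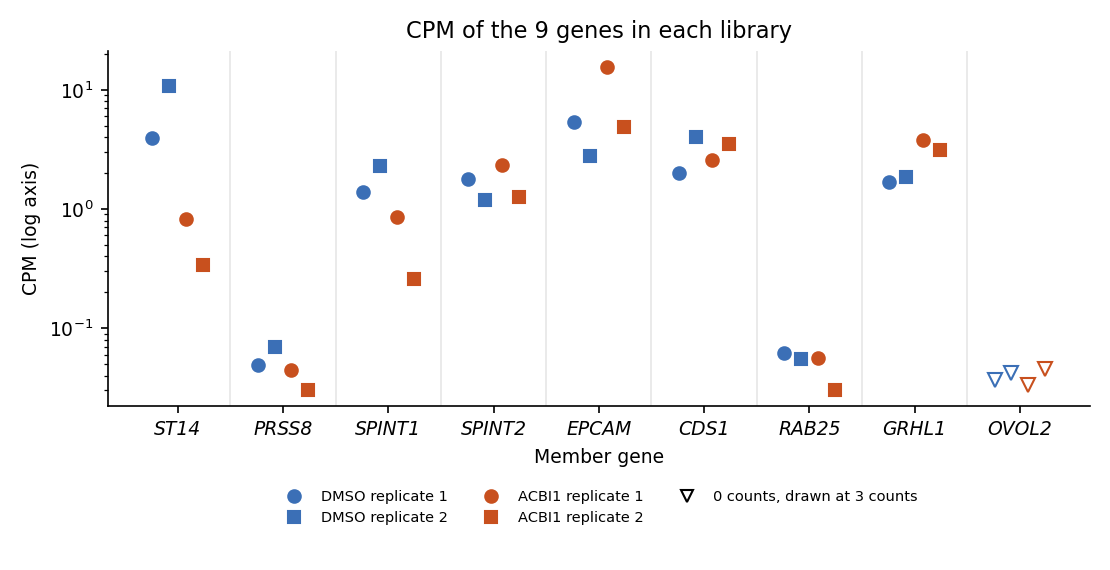
CPM on a log axis for each of the 9 genes in each library (blue DMSO, orange ACBI1; circles replicate 1, squares replicate 2; open triangles are 0 counts, drawn at the value of 3 counts). The groups separate for ST14, SPINT1 and GRHL1, overlap for SPINT2, EPCAM and CDS1, and PRSS8 and RAB25 stay under 0.07 CPM, where a gap between groups rests on 15 counts for PRSS8.

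ST14, the matriptase gene (chr11:130159562-130210376 in GENCODE 29, plus strand), was counted 322 and 772 times in the DMSO replicates and 74 and 22 times in the ACBI1 replicates. These are 3.95 and 10.7 CPM with DMSO and 0.827 and 0.336 CPM with ACBI1. Both ACBI1 libraries were below both DMSO libraries, and within each group the replicates differed by more than 2-fold: the higher DMSO library exceeded the lower by 2.71 times (95% counting interval 2.38 to 3.10) and the higher ACBI1 library exceeded the lower by 2.46 times (1.51 to 4.17). Transcripts of ST14 fell with ACBI1, from 7.34 ± 4.79 to 0.581 ± 0.347 CPM (SD, n = 2). The log2 change was -3.64 (SE 0.66, 95% interval -5.25 to -2.03, edgeR adjusted p 0.0185), or 12.4-fold lower. ST14 was still called lower with any 1 library left out, but the size moved: the log2 change was -2.75 without DMSO replicate 2 (adjusted p 0.00452) and -4.43 without ACBI1 replicate 1 (adjusted p 0.0192). No exon of another annotated gene overlaps those of ST14.

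PRSS8, the prostasin gene (chr16:31131433-31135762, minus strand), is the partner of ST14 in the cascade and was at 0.0491 and 0.0695 CPM with DMSO and 0.0447 and 0.0305 CPM with ACBI1. These values rest on 15 counts in all, so the transcript of the partner protease was close to absent in this line in both groups. An antisense gene overlaps 11.9% of the exonic length of PRSS8, and reads there may have been dropped.

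SPINT1, which encodes HAI-1, the close inhibitor of matriptase (chr15:40844018-40858207, plus strand), had 113 and 164 counts with DMSO and 77 and 17 with ACBI1. Its level was 1.39 and 2.28 CPM with DMSO and 0.860 and 0.259 CPM with ACBI1. Both ACBI1 libraries lay below both DMSO libraries, although DMSO replicate 1 and ACBI1 replicate 1 were close. The log2 change of -1.69 (SE 0.61, 95% interval -3.18 to -0.20) did not pass the test (edgeR adjusted p 0.112). It was -1.10 without ACBI1 replicate 2 (adjusted p 0.261) and -2.80 without ACBI1 replicate 1 (adjusted p 0.0447), and -2.0 without DMSO replicate 1 (adjusted p 0.0331). SPINT1-AS1, an antisense gene that shares 2.82% of the exonic length of SPINT1, had 8 counts at most in a library.

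SPINT2, which encodes HAI-2 (chr19:38244035-38292614, plus strand), had 144 and 86 counts with DMSO and 211 and 83 with ACBI1. In CPM these are 1.77 and 1.20 against 2.36 and 1.27, and the groups overlapped. Its log2 change of 0.29 (SE 0.44, adjusted p 0.687) has a 95% interval from -0.77 to 1.35 and became -0.22 without ACBI1 replicate 1. An annotated gene on the same strand shares 4.65% of the exonic length of SPINT2. Per exon length, SPINT1 made up 53.5% and 73.7% of the 2 inhibitor transcripts with DMSO and 34.9% and 23.1% with ACBI1, and the groups did not overlap. Among transcripts of ST14, SPINT1 and SPINT2, the protease took 55.4% and 73.8% with DMSO and 21.4% and 19.6% with ACBI1. The groups again did not overlap, but both shares are made of the same counts as the levels above and are not separate results. No test was run on these shares (an exact permutation p of 2 against 2 libraries cannot go below 0.333), and they depend on the exon lengths used.

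EPCAM (chr2:47345158-47387601, plus strand) had 438 and 200 counts with DMSO and 1393 and 317 with ACBI1, and its replicates differed widely. The level was 5.38 and 2.78 CPM with DMSO and 15.6 and 4.83 CPM with ACBI1. ACBI1 replicate 1 stood above the other 3 libraries, while ACBI1 replicate 2 lay between the DMSO libraries. Between the ACBI1 replicates the ratio was 3.22 (95% counting interval 2.85 to 3.65), which is larger than the ratio of the group means. The log2 change of 1.32 (SE 0.60, 95% interval -0.13 to 2.78) was not called (edgeR adjusted p 0.179). It was 0.25 without ACBI1 replicate 1, 1.92 without ACBI1 replicate 2, 1.88 without DMSO replicate 1 and 0.92 without DMSO replicate 2. The size of the change thus moved with each library left out, and most with ACBI1 replicate 1.

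CDS1 (chr4:84582979-84651338, plus strand) had 164 and 289 counts with DMSO and 230 and 228 with ACBI1. These are 2.01 and 4.02 CPM against 2.57 and 3.48 CPM, with both ACBI1 libraries inside the range of the DMSO libraries. The log2 change was 0.0035 (SE 0.42, adjusted p 0.997), with a 95% interval from -1.02 to 1.02, and its sign was negative without DMSO replicate 1 (-0.41), without ACBI1 replicate 2 (-0.24) and with no filter on low counts (-0.0048). CDS2, the paralog with the same activity, stood at 35.3 ± 7.07 and 34.6 ± 9.85 CPM in the same order of groups (SD, n = 2). The log2 change of CDS2, -0.03 (95% interval -0.64 to 0.59), was not called either, and it turned to 0.05 under scaling by library size only. Of 17 genes of CDP-diacylglycerol and phosphatidylinositol synthesis, all tested, 1 was called, higher, where 6.75% of all tested genes were. The median log2 change of the list was -0.21. DGKH, a diacylglycerol kinase, rose from 23.0 ± 1.16 to 42.5 ± 0.468 CPM (SD, n = 2), which is 0.89 in log2 units (adjusted p 0.0166), which lost its call without ACBI1 replicate 1 (adjusted p 0.0745) or ACBI1 replicate 2 (0.0726).

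RAB25 (chr1:156061160-156070514, plus strand) was at 0.0614 and 0.0556 CPM with DMSO and 0.0559 and 0.0305 CPM with ACBI1, on 16 counts in all. Its ubiquitous relatives were abundant and steady between libraries. RAB11A was at 96.7 ± 2.41 and 94.1 ± 0.0759 CPM (SD, n = 2) with DMSO and ACBI1, with a log2 change of -0.04 (95% interval -0.40 to 0.32) that became 0.05 under scaling by library size only. RAB11B was at 79.7 and 81.1 CPM with DMSO and 89.6 and 86.5 CPM with ACBI1, with a log2 change of 0.13 (95% interval -0.22 to 0.49), and RAB11B-AS1 shares 12.4% of its exonic length. RAB17, another epithelial RAB, had 5 and 15 counts in each group and a log2 change of 0.04, which was -0.59 without DMSO replicate 1 and -1.24 without ACBI1 replicate 2. In the list of 16 genes of RAB11-dependent recycling, 14 were tested, 1 was called higher and 2 lower, and the median log2 change was 0.09. The shares over all tested genes were 6.75% higher and 10.6% lower. MYO5B, the motor that moves RAB11 vesicles in epithelial cells, fell from 7.31 ± 2.40 to 0.261 ± 0.0889 CPM (SD, n = 2), and its log2 change was -4.78 with an SE of 0.45 (adjusted p 0.00365). RAB11FIP3, an effector of RAB11, rose with a log2 change of 0.80 (adjusted p 0.0206), and RAB8B fell with one of -0.72 (adjusted p 0.0257). Both lost their call with 1 library left out, RAB11FIP3 without ACBI1 replicate 1 (adjusted p 0.0685) or ACBI1 replicate 2 (0.107), and RAB8B without DMSO replicate 2 (0.0506), ACBI1 replicate 1 (0.133) or ACBI1 replicate 2 (0.127).

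GRHL1 (chr2:9951693-10002277, plus strand) had 136 and 133 counts with DMSO and 342 and 206 with ACBI1. In CPM these are 1.67 and 1.85 with DMSO and 3.82 and 3.14 with ACBI1. Its replicates were the closest of the 6 tested genes in both groups, with ratios of 1.11 (95% counting interval 0.865 to 1.42) and 1.22 (1.02 to 1.45), and both ACBI1 libraries lay above both DMSO libraries. The log2 change of 0.98 (SE 0.31, 95% interval 0.23 to 1.74, unadjusted p 0.0187) did not pass the test over all genes (edgeR adjusted p 0.0793). With each library left out in turn the change stayed between 0.85 and 1.11, a narrower range than that of any other tested member.

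The other grainyhead-like genes were rarer than GRHL1. GRHL2, a main grainyhead-like factor of epithelia, had 3 counts in DMSO replicate 2 and 0 in the other 3 libraries. GRHL3 had 23 and 19 counts with DMSO and 39 and 7 with ACBI1, a log2 change of 0.02 (95% interval -1.63 to 1.67) that was -0.03 without DMSO replicate 2 and -1.33 without ACBI1 replicate 1. GRHL1 therefore made up 74.6% and 75.9% of grainyhead-like transcripts per exon length with DMSO and 81.3% and 93.6% with ACBI1. The OVO family was nearly absent: beside OVOL2 (chr20:17956979-18059188, minus strand) at 0, OVOL1 had 0 counts with DMSO and 1 and 2 with ACBI1. OVOL3, named after its values were seen, had 2 and 2 counts with DMSO and 4 and 5 with ACBI1. SNX5 shares 2.71% of the exonic length of OVOL2.

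ZEB1 and ZEB2, zinc-finger repressors that oppose grainyhead-like and OVO factors, were compared with both families per exon length. ZEB1 was at 11.7 ± 1.14 CPM per kb with DMSO and 11.6 ± 1.15 with ACBI1, and ZEB2 at 2.53 ± 0.108 and 0.843 ± 0.0514 (SD, n = 2). GRHL1, the most abundant gene of either family, was at 0.221 ± 0.0159 and 0.438 ± 0.0603 CPM per kb (SD, n = 2), below both repressors in each library. In CPM, ZEB1 was found at 102 ± 9.85 CPM in DMSO libraries and 101 ± 9.95 CPM in ACBI1 libraries (SD, n = 2), with a log2 change of -0.01 (95% interval -0.42 to 0.39) that became 0.08 under scaling by library size only and 0.02 under upper quartile scaling. ZEB2 fell from 63.3 ± 2.72 to 21.1 ± 1.29 CPM (SD, n = 2), and its log2 change was -1.58 with an SE of 0.16 (edgeR adjusted p 0.00395). In the list of 9 repressors of epithelial genes, 8 were tested, 2 were called lower and 1 higher, and the median log2 change was -0.08. The shares over all tested genes were 10.6% lower and 6.75% higher. SNAI2 fell from 7.59 ± 2.14 to 0.948 ± 0.535 CPM (SD, n = 2), which is -3.01 in log2 units (adjusted p 0.0138) and became -3.74 without ACBI1 replicate 2. TCF3, an E-protein that is also expressed outside epithelia, rose with a log2 change of 0.85 (adjusted p 0.0310), a call lost without DMSO replicate 2 (adjusted p 0.0583), ACBI1 replicate 1 (0.0562) or ACBI1 replicate 2 (0.157).

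A list of 16 genes came next, with relatives of GRHL1 and OVOL2, other transcription factors, and the splicing regulators ESRP1 and ESRP2. Of these, 11 were tested, 5 were called lower and none was called higher, with a median log2 change of 0.02. Over all tested genes, 10.6% were called lower. ESRP1 (log2 change 0.37) and ESRP2 (0.59) were tested and not called. ELF3, an ETS factor of epithelia, had 1059 and 1704 counts with DMSO and 18 and 16 with ACBI1, and it fell by 6.37 on the log2 scale (SE 0.44, adjusted p 0.00193). EHF, a related ETS factor, had 530 and 450 counts with DMSO and 7 and 0 with ACBI1. It was under the filter level of 0.126 CPM in both ACBI1 libraries and was tested only through DMSO. Its fitted log2 change of -7.14 (adjusted p 0.00521) depends on the libraries and the method: it was -11.86 without ACBI1 replicate 1, -6.33 without ACBI1 replicate 2 and -7.98 with limma-voom. KLF4 and KLF5, Krüppel-like factors of epithelial renewal, fell by 1.89 (adjusted p 0.0153) and by 1.39 (adjusted p 0.0075) on the log2 scale. The fifth gene called lower was TP63, chosen for naming after its values were seen, with 139 and 92 counts against 18 and 12.

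**Figure D3:**
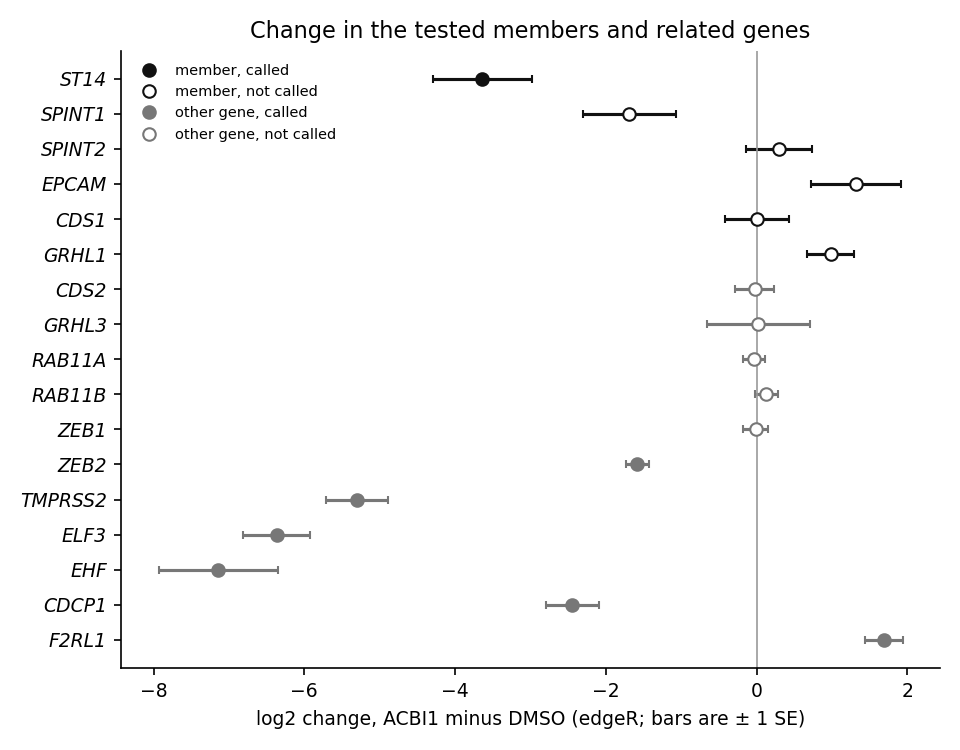
Log2 change with ACBI1 (horizontal axis, edgeR; bars ± 1 SE) for the 6 tested members in black and 11 related genes in grey, filled where called. ST14 is the only filled black symbol, while GRHL1 and EPCAM lie to the right of 0, at 0.98 and 1.32, and are open.

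Relatives of matriptase in the membrane were mostly silent. Of 18 other membrane serine protease genes, 4 were tested and 1 was called, lower, where 10.6% of all tested genes were. The 14 not tested had 16 counts at most in any library. TMPRSS2, a protease of lung epithelium that also cleaves viral envelope proteins, had 1624 and 2017 counts with DMSO and 38 and 53 with ACBI1. Its level fell from 19.9 and 28.0 CPM to 0.425 and 0.808 CPM, which is 39.4-fold lower (log2 change -5.30, SE 0.41, adjusted p 0.00231). Of 10 secreted kallikreins, proteases of skin and glands, 1 was tested and it was not called, and the other 9 had 3 counts at most in a library.

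Among 15 other serine protease inhibitors, 5 were tested and 4 were called, each lower, where 10.6% of all tested genes were. The median log2 change of the 5 was -1.48. TFPI2, a Kunitz-type inhibitor deposited in the matrix, fell from 117 ± 18.8 to 42.0 ± 1.66 CPM (SD, n = 2), which is -1.48 in log2 units (adjusted p 0.00644). SERPINB1, an intracellular inhibitor of neutrophil proteases, fell by 1.04 on the log2 scale (adjusted p 0.0167), a call lost without ACBI1 replicate 1 (adjusted p 0.0909). The remaining pair was named after their values were seen. SERPINA1 had 176 and 85 counts against 3 and 2, and SERPINA5 had 34 and 39 counts against 0 and 0. Both were under the filter level of 0.126 CPM in each ACBI1 library. They were tested only through their DMSO libraries and could hardly be called higher, which limits the comparison with 10.6%.

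Substrates and targets of the cascade went both ways: of 15 genes 12 were tested, 2 were called higher and 3 lower, with a median log2 change of -0.34. Over all tested genes, 6.75% were called higher and 10.6% lower. F2RL1, which encodes the receptor PAR2 that matriptase can activate, rose from 22.4 and 27.3 CPM to 63.2 and 97.1 CPM, and its log2 change was 1.69 with an SE of 0.25 (adjusted p 0.0104). CDCP1, a transmembrane protein cleaved by matriptase, fell from 771 ± 328 to 142 ± 32.4 CPM (SD, n = 2), and its log2 change was -2.44 with an SE of 0.35 (adjusted p 0.00953). PLAU, the urokinase gene, fell by 1.72 on the log2 scale (adjusted p 0.00453). MST1, the gene of macrophage-stimulating protein, fell by 1.56 (adjusted p 0.0237), with near-identical pseudogene copies that can share its reads and a call lost without ACBI1 replicate 2 (adjusted p 0.0824). The other gene called higher, named after its values were seen, was HGF. It had 1 and 0 counts with DMSO and 15 and 39 with ACBI1. HGF was under the filter level of 0.126 CPM in both DMSO libraries. It was tested only through ACBI1 and could hardly be called lower, which limits the comparison with 6.75%. The fitted log2 change of HGF was 5.53 (95% interval 2.66 to 8.41, edgeR adjusted p 0.0285). Its pooled ratio of ACBI1 to DMSO counts was 53.4, with an exact 95% counting interval from 9.19 to 2148. That interval leaves out the spread between libraries, and the ACBI1 replicates differed by 3.55 times.

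The last lists held genes tied to EPCAM and to epithelial identity, and their counts stand beside 17.4% of all tested genes called, 10.6% lower and 6.75% higher. All 11 genes for partners and processing of EPCAM were tested, 4 were called lower and none higher, and the median log2 change was -0.67. CD82, a tetraspanin, fell from 212 ± 57.3 to 9.57 ± 0.425 CPM (SD, n = 2), and its log2 change was -4.47 with an SE of 0.25 (adjusted p 0.00141). CLDN7, the claudin that binds EPCAM, fell by 1.85 on the log2 scale (adjusted p 0.0271), BACE1, a secretase that can cleave EPCAM, by 1.48 (adjusted p 0.0112), and CD9, another tetraspanin, by 0.90 (adjusted p 0.0390). The call of CLDN7 was lost without ACBI1 replicate 1 (adjusted p 0.0714) or ACBI1 replicate 2 (0.104), and that of CD9 without DMSO replicate 2 (0.0946), ACBI1 replicate 1 (0.180) or ACBI1 replicate 2 (0.0695).

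Of 31 further epithelial identity genes 19 were tested, 5 were called lower and none higher, with a median log2 change of -0.10. PPL, which encodes the cornified-envelope protein periplakin, fell by 3.02 on the log2 scale (adjusted p 0.0330), or by 2.1 without DMSO replicate 2 and by 3.79 without ACBI1 replicate 2, and it was not called without ACBI1 replicate 1 (adjusted p 0.0928). LSR, a protein of tricellular junctions, fell by 2.08 (adjusted p 0.0165), and PKP3, a desmosomal plakophilin, by 1.56 (adjusted p 0.0261). LSR was not called without ACBI1 replicate 1 (adjusted p 0.0650) or ACBI1 replicate 2 (0.0622), nor PKP3 without ACBI1 replicate 2 (0.0648). The other genes called in this list, named after their values were seen, were S100A14 and PRRG2, both with a mean under 1 CPM. S100A14 had 12 and 20 counts against 1 and 2 (edgeR adjusted p 0.0383). PRRG2 had 37 and 42 counts against 15 and 8 (edgeR adjusted p 0.0473). S100A14 was under the filter level of 0.126 CPM in both ACBI1 libraries, and PRRG2 in ACBI1 replicate 2. Both were thus tested through their DMSO libraries.

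**Figure D4:**
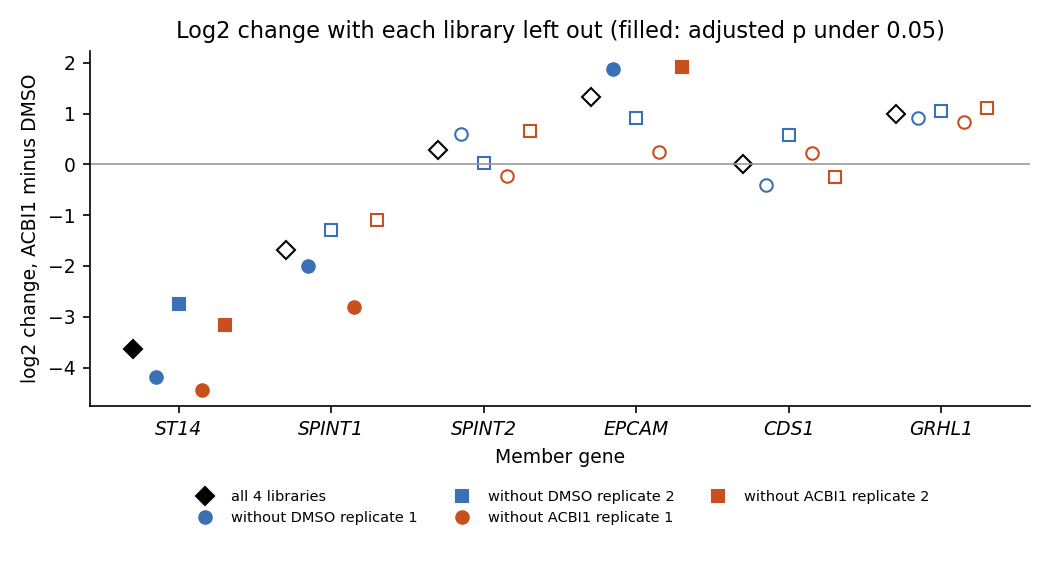
Log2 change of the 6 tested members with all 4 libraries (black diamonds) and with each library left out (blue for a DMSO library, orange for an ACBI1 library; circles replicate 1, squares replicate 2; filled where the adjusted p was under 0.05). ST14 is filled throughout and spans -4.43 to -2.75, GRHL1 stays between 0.85 and 1.11, and EPCAM spans 0.25 to 1.92.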

How the data were processed

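RNA-seq of 4 libraries from H1792 cells was used, 2 with DMSO and 2 with ACBI1, grouped by sample title. The deposited values are raw counts of reads per gene symbol. Per the submitters' processing notes, TopHat2 2.1.1, HTSeq 0.11.0 and the build hg38 were used; annotation and strand setting are not given in the sources used here, so antisense and overlapping reads can be assigned wrongly or dropped. The library kit named is one for DNA input, per the labels' protocols. Reads given to no gene (13.9% to 15.4%) were left out.

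Counts were filtered with filterByExpr (minimum count 10, total 15), scaled by TMM and put through the quasi-likelihood test of edgeR 4.0.16 under R 4.3.3 (glmQLFit, glmQLFTest, two-sided) with treatment as the single term, with Benjamini-Hochberg adjustment over 19159 genes; intervals of log2 changes use the moderated degrees of freedom. DESeq2 1.42.0 and limma-voom 3.58.1 were alternatives, beside other scalings, filters, a stricter threshold, a replicate block and leaving out each library. Lengths, overlaps and gene coordinates came from GENCODE 29 (GRCh38); 95.5% of tested genes had a length. The scripts were tested on simulated counts. Lists were described by counts and medians, with no set test. Named were the 9 members, their nearest paralogs (1 is not reported here), ZEB1, ZEB2, the degrader's targets, genes overlapping a member, and, per list, up to 4 called genes that changed most and averaged 1 CPM or more. Members and lists were chosen with earlier results of these data known. Counting intervals cover counting error only.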

Additional observations from a re-analysis of the deposited data

How the results depend on the processing

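ST14 was called lower under each of the 7 alternatives fitted to all 4 libraries in which it was tested and with each library left out, but not at a threshold of 0.01. The number of members called lower (1) became 2 with no filter, with DESeq2 and with the replicate block, and 0 at a threshold of 0.01 and with a mean of at least 5 CPM, which left 1 member to test. The number called higher (0) became 1 with no filter, 1 with DESeq2 and 2 with the replicate block. SPINT1 gained a call with no filter (adjusted p 0.00141), DESeq2 (0.0397) and the block (0.0158), EPCAM with no filter (0.000670) and the block (0.00161), and GRHL1 with DESeq2 (0.0188) and the block (0.0148). With no filter, edgeR's prior degrees of freedom became infinite, so that genes shared 1 estimate of spread. With 1 library left out, 1 to 2 members were called lower and 0 to 1 higher; the lone library of a group is then assumed to vary like the others. The members' median of 0.15 became -0.20 with no filter, which tests 8 members, and 1.32 with a mean of at least 5 CPM.

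Over all genes, 1294 were called higher and 2037 lower. The counts were 2202 and 3316 with no filter, 3708 and 4201 with the replicate block, 172 and 611 at 0.01, and 415 to 1651 and 964 to 2641 with 1 library left out. Under scaling by library size only 1755 were higher and 1866 lower. Same-numbered libraries deviated together across genes (r = 0.44), but the labels tie no number to a shared batch and there are only 2 pairs, so the block serves as an alternative only.

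Signs turned only for small changes that were not called: SPINT2 (-0.22 to 0.66 with 1 library left out, negative without ACBI1 replicate 1), CDS1 (-0.0048 with no filter, and -0.41 to 0.58 with 1 library left out), GRHL3 (-0.25 with limma-voom, -0.13 with the block, -0.027 without DMSO replicate 2, and -1.33 to 0.66 with 1 library left out), CDS2 (0.054 with library size only, 7.5e-05 with upper quartile scaling, 0.19 without DMSO replicate 2, and -0.36 to 0.25 with 1 library left out), RAB11A (0.047 with library size only), RAB17 (-0.042 with limma-voom, and -1.24 to 1.14 with 1 library left out), ZEB1 (0.076 with library size only, 0.020 with upper quartile scaling, and -0.11 to 0.093 with 1 library left out) and PBRM1 (-0.041 without DMSO replicate 2). With the median transcript length in place of the union of exons, the mean shares moved for GRHL1 with DMSO (75.2% to 83.2%), SPINT1 with DMSO (63.6% to 43.4%) and ACBI1 (to 14.8%), and ST14 with ACBI1 (20.5% to 12.5%). Members below 0.1 CPM are limited by depth, and the others by 2 libraries a group. Where a value moved and no number here shows why, the cause was not tested.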
